A study of Mus musculus with 4 samples.

Results

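The genes described here encode the catalytic and core subunits of the ATP-dependent chromatin remodelling complexes of the SWI/SNF, ISWI, CHD/NuRD, INO80 and SRCAP families. They were chosen by name, as a list of 47 genes, and all 47 were found among the 53465 gene identifiers of the count table. Of these, 46 had enough reads to be tested. Polyadenylated RNA was sequenced from 2 libraries of cells given 5 µM 1-nitropyrene over 12 h (replicates 2 and 3) and 2 libraries of control cells without it (replicates 1 and 2). The cell line named for all 4 is MLE-12, which derives from mouse lung epithelium and is immortalized, so both groups share 1 line as their model. 1-Nitropyrene is a nitrated polycyclic hydrocarbon of diesel exhaust, and the study's stated purpose was its influence on translation of Fbxw7 mRNA. Whether replicates are separate cultures is not in the labels, so the spread between these libraries may be technical. In the edgeR fit of all libraries, p-values rest on a spread estimated across genes and set by a gene's level, not on each gene's own. Levels are given as CPM, counts scaled by library size and TMM factor, and differences as log2 fold changes of 1-nitropyrene over control with the standard error (SE). A gene was called at an adjusted p under 0.05 in edgeR's quasi-likelihood test over 7738 genes.

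Remodelling complexes use the energy of ATP to slide, evict, space or exchange nucleosomes, and so govern which stretches of DNA can be read. SWI/SNF complexes open chromatin at enhancers and promoters, ISWI complexes space nucleosomes evenly, NuRD joins remodelling to histone deacetylation, and the INO80, SRCAP and EP400 complexes exchange histone variants. Each complex is built around 1 ATPase, and many of its places can be taken by either of a pair of related proteins. In lung epithelium, SWI/SNF subunits are known as partners of lineage transcription factors and as tumour suppressors.

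The libraries held 8797502 and 8601825 counts with 1-nitropyrene, and 10773733 and 6908055 counts in control. Loci of ribosomal RNA took 44.2% to 45.9% of the counts, and a count was present for 36.7% to 40.6% of the 21942 protein-coding genes annotated. The label of a lung epithelial line was not borne out by its markers: 9 of 10 (Krt8, Krt18, Krt19, Epcam, Cdh1, Nkx2-1, Sftpb, Sftpa1 and Sftpd) had 0 counts in all 4 libraries, and Sftpc had 1 count in a control library. At a floor of 3 counts, 0 counts leave room for 0.278 to 0.434 CPM per library. The 9 fibroblast and smooth muscle markers other than Vim summed to 29 and 9 counts with 1-nitropyrene, and to 120 and 38 counts in control (3.30 and 1.05 CPM with 1-nitropyrene, 11.1 and 5.50 CPM in control), while Vim was read in all. Endothelial markers summed to 0 to 3 counts and leukocyte markers to 0 to 2 counts per library. The 84 ribosomal protein genes, among the most expressed of a growing cell, took 0.341% to 0.388% of the counts, with 10 at 0 counts in every library. Whether the reads come from the labelled line was not tested, so every level, 0 count and order of levels given here holds for reads counted at mouse loci. The part of the markers in the results was not tested. Each gene is named by the mouse locus at which its reads were counted. In bulk RNA, fewer cells that express a gene and less of its RNA per cell cannot be told apart.

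Promoter windows were available in RefSeq (GRCm38.p6) for 39 of the 47 genes, each from 250 bases before to 50 bases after RefSeq's start of the gene, which for Smarca2 and Smarcc1 lies inside the span of the gene model used for counting. The windows of 5 genes are shown, written 5′ to 3′ on the gene's own strand. Smarca4 and Smarca2 are the alternative ATPases of SWI/SNF, called higher and lower by edgeR, though DESeq2 did not call Smarca2. Smarcc1 and Ino80 had the steepest called rise and fall, and Rbbp7 was the member with the smallest p. Capitals mark every match, on either strand, to GGGCGG (GC box), CCAAT and GCGTG (the core letters bound by the Ah receptor).
Smarca4 (chr9:21615919-21616218, plus strand): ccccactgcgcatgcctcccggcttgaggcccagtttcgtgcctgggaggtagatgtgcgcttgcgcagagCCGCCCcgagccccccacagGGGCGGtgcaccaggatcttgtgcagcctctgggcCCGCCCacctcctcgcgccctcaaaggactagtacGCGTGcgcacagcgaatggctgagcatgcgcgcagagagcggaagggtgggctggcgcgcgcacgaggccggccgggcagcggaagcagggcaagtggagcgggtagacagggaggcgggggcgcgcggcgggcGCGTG
Smarca2 (chr19:26604910-26605209, plus strand): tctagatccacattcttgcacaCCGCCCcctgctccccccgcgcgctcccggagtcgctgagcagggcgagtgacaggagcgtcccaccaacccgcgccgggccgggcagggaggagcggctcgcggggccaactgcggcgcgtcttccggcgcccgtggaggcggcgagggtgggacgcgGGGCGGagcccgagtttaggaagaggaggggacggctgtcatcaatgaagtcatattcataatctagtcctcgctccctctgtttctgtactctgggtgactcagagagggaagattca
Smarcc1 (chr9:110131774-110132073, plus strand): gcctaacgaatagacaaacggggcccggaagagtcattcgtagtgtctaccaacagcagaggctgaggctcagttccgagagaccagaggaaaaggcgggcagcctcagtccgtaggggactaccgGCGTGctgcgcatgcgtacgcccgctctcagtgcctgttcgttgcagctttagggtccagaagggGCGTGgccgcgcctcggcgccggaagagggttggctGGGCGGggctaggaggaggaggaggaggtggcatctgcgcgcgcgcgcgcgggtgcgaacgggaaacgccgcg
Ino80 (chr2:119477638-119477937, minus strand): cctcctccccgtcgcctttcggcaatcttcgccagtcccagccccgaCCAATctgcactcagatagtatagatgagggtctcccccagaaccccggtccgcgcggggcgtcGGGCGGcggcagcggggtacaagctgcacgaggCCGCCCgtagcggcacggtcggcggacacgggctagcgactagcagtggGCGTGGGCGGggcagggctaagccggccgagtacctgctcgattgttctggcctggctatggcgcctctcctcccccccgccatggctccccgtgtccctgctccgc
Rbbp7 (chrX:162760122-162760421, plus strand): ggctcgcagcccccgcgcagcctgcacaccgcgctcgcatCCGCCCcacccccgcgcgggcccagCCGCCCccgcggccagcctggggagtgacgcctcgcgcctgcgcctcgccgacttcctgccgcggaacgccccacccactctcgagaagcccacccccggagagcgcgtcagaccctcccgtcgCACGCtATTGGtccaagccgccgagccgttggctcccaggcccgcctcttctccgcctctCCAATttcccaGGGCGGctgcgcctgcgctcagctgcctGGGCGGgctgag
These windows had GC contents of 72.3%, 65.7%, 66.0%, 70.0% and 75.7% in the order shown. A GC box was present in all 5, at 3, 2, 1, 3 and 4 places, and 1 of those in Ino80 overlaps a match to the Ah receptor's letters. Those, GCGTG, occurred at 2 places in Smarca4, 2 in Smarcc1, 1 in Ino80 and 1 in Rbbp7, and had no match in the Smarca2 window. Over the 47 windows of the 39 genes, GGGCGG was present in 91.5%, against 67.5% of the windows of all tested genes and 35.7% of all windows in the table. GCGTG was present in 55.3%, against 52.5% of the windows of tested genes and 32.4% of all windows. CCAAT was present in 36.2%, against 37.2% and 37.4%. Matches to TATAAA were in 6.38% (6.08% and 13.6%), to CACGTG in 6.38% (10.4% and 7.15%) and to CCGGAAGT in 2.13% (8.75% and 3.89%). TGACGTCA had no match in these windows, against 3.05% of the windows of tested genes. Median GC content was 65.7% for the remodelling genes, 62.7% for tested genes and 52.7% for all windows. A match describes letters only.

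After 1-nitropyrene, transcripts of Smarca4, Smarcc1, Chd3, Smarca5, Rbbp4 and Rbbp7 rose, by 1.11-fold to 1.29-fold, and Ino80 fell to 0.740 of its control level. These 7 were called by edgeR with all libraries, by edgeR with each library left out in turn, and by DESeq2. In all, 14 of the 46 tested genes were higher and 4 lower, together 39.1%. Among all 7738 genes tested 24.5% were called, 13.2% higher and 11.2% lower. The remodelling genes were sequenced more deeply than most, with a median level of 74.7 CPM against 16.6 CPM over all tested genes. In a fit limited to genes averaging 10 CPM or more, 34.9% of genes were called, and 16 of the 41 remodelling genes left in it (39.0%), a share near that background. By direction 11 of the 41 were higher, against 17.8% of genes in that fit, and 5 lower, against 17.1%.

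Every called change was small. The called rises ranged from 1.07-fold to 1.29-fold with a median of 1.17-fold, and the called falls reached 0.740 to 0.909 of control. None of the 18 called genes changed by more than 1.5-fold, which 478 of the 1894 called genes of the transcriptome did, and the median called gene of the transcriptome changed 1.28-fold. In edgeR's test against a 1.2-fold change, 0 of the 46 were called higher and 1, Ino80, lower, with 2 higher and 2 lower at an unadjusted p under 0.05. That test called 5.85% of all genes, 3.09% higher and 2.77% lower. The median log2 fold change was 0.09 over the 46 genes and 0.00 over all tested genes. Without scaling factors 9 remodelling genes were higher and 5 lower (30.4% of the 46), against 24.4% of all tested genes called either way. Of all calls 46.0% were then higher, against 54.1% with scaling factors. DESeq2 called 6 higher and 1 lower of the 42 for which it gave an adjusted p, against 9.67% higher and 5.28% lower over all such genes. Both 1-nitropyrene libraries lay above both controls for 23 of the 46 genes, against 30.0% of all tested genes. They lay below both controls for 13, against 29.2%, so 36 of 46 did not overlap, against 59.2% of all tested genes.

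**Figure D1:**
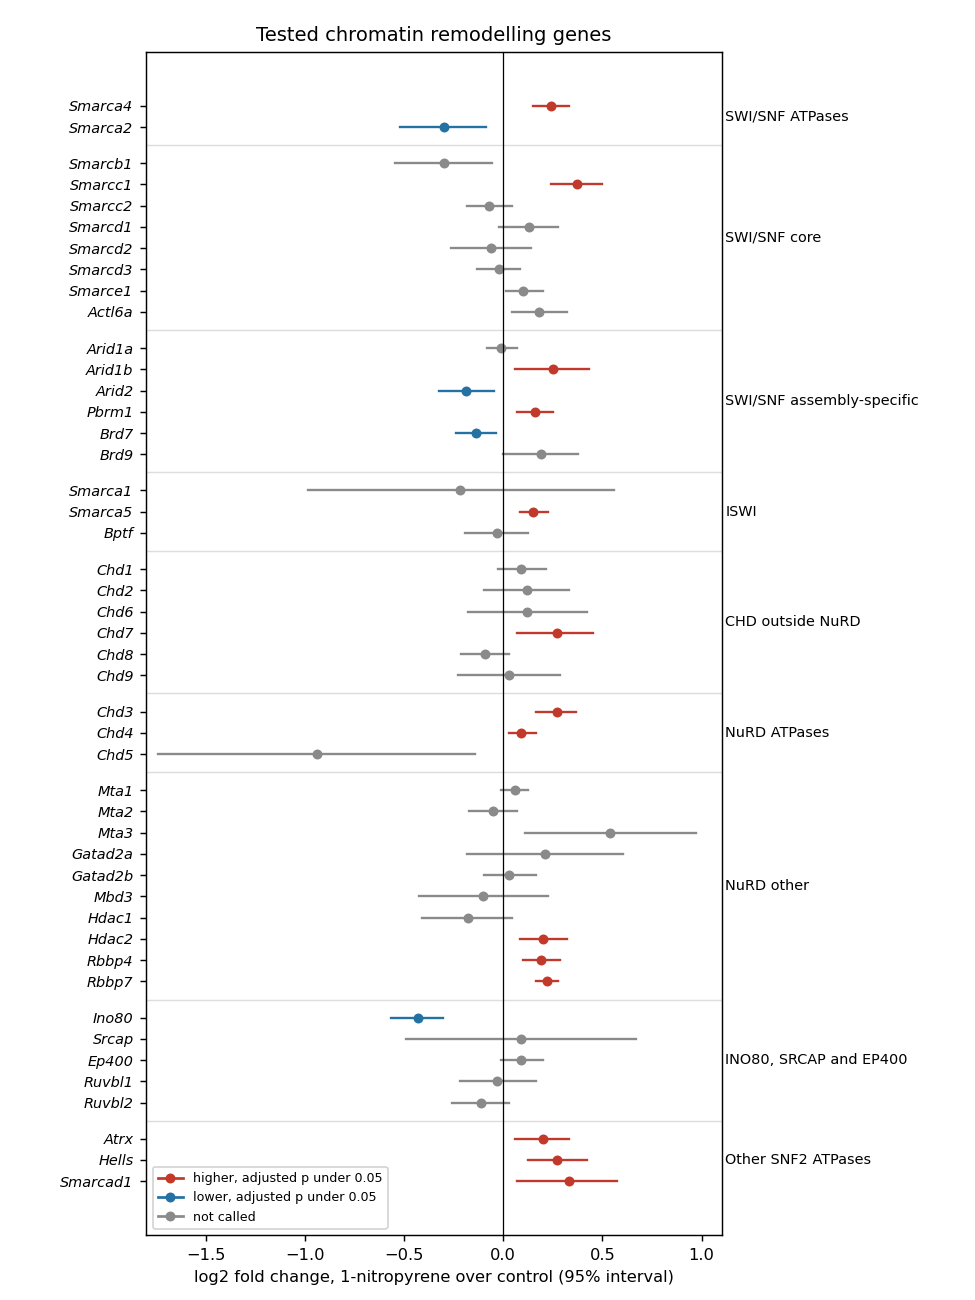
Log2 fold change of 1-nitropyrene over control (x axis) for the 46 tested remodelling genes, grouped by complex, with 95% intervals as bars and red, blue and grey for higher, lower and not called. The 14 genes in red lie between 0.09 and 0.37 and the 4 in blue between -0.43 and -0.14, and the widest intervals belong to the scarcely read Chd5, Smarca1 and Srcap.

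**Figure D2:**
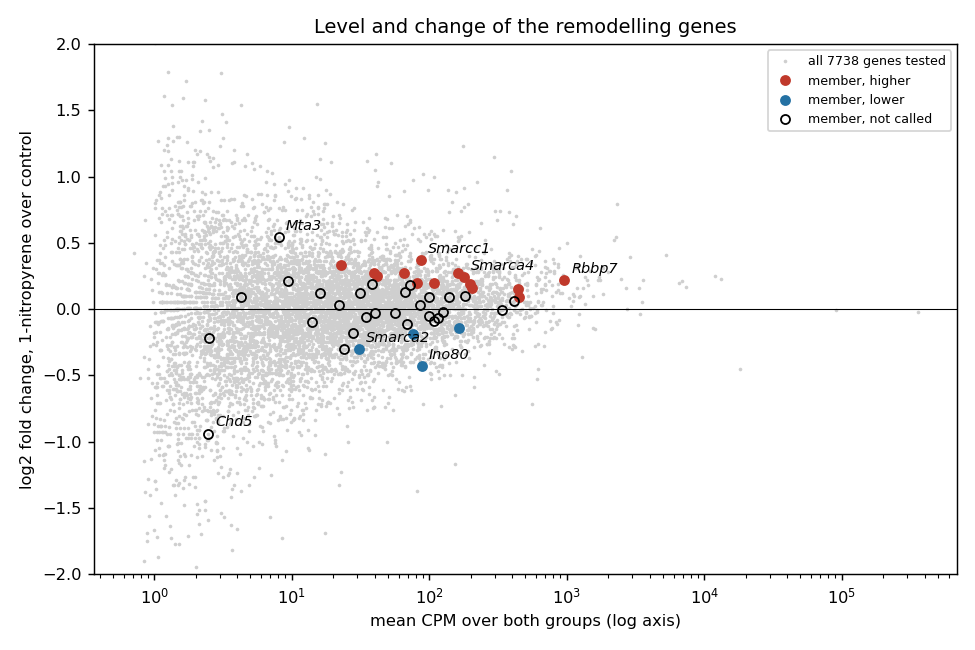
Mean CPM over both groups (x axis, log scale) against log2 fold change of 1-nitropyrene over control (y axis), with all 7738 tested genes in grey and the 46 remodelling genes as larger symbols. The called remodelling genes sit in the narrow, well-read part of the cloud, and 25 genes, no remodelling gene among them, lie beyond the y axis.

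The ATPase of SWI/SNF is either Smarca4 (BRG1) or Smarca2 (BRM), never both. With all libraries edgeR called Smarca4 higher and Smarca2 lower, and only the Smarca4 call held in DESeq2. Smarca4 (GRCm38 chromosome 9, 21616169 to 21704230) stood at 189 and 196 CPM with 1-nitropyrene, against 162 and 165 CPM in control. Both treated libraries lay above both controls (log2 fold change 0.24, SE 0.05, edgeR adjusted p = 1.36e-05). Smarca2 (chromosome 19, 26605050 to 26778322) stood at 24.5 and 30.8 CPM with 1-nitropyrene, against 33.7 and 34.7 CPM in control. It fell by 0.30 on the log2 scale (SE 0.11, adjusted p = 0.0287), with the lower value in 1-nitropyrene replicate 2. The Smarca2 call ended in DESeq2 (adjusted p = 0.306), without control replicate 1 (adjusted p = 0.127), without control replicate 2 (0.128) and without 1-nitropyrene replicate 2 (0.472), where the log2 fold change was -0.15. Without 1-nitropyrene replicate 3 it was -0.48.

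Among the 8 subunits of SWI/SNF listed as core, 1 rose (12.5%) and 7 did not pass the test. That share lay near the 13.2% of all tested genes called higher. Smarcc1 (BAF155), a scaffold subunit, had 100.3 and 95.8 CPM with 1-nitropyrene and 78.4 and 72.7 CPM in control. The groups lay well apart (log2 fold change 0.37, SE 0.07, adjusted p = 6.72e-07), the steepest called rise among the remodelling genes. Smarcc2 (BAF170), which can take the same place, had 112 and 113 CPM with 1-nitropyrene and 117 and 119 CPM in control (log2 fold change -0.07, adjusted p = 0.459). Actl6a, an actin-related subunit also found in INO80 and EP400 complexes, had 77.1 and 77.7 CPM with 1-nitropyrene and 70.4 and 65.5 CPM in control (adjusted p = 0.0536). Smarcb1 (SNF5), the subunit that grips the nucleosome, had 18.3 and 25.2 CPM with 1-nitropyrene and 27.5 and 25.5 CPM in control. Its log2 fold change of -0.30 missed the threshold (adjusted p = 0.0626), and was -0.55 without 1-nitropyrene replicate 3 (0.00509) and -0.09 without 1-nitropyrene replicate 2 (0.744). It was called lower without scaling factors (adjusted p = 0.0361) and among genes averaging 10 CPM or more (0.0487). The DNA-binding subunit Smarce1 was at 187 ± 3.01 CPM with 1-nitropyrene and 175 ± 11.0 CPM in control (SD, n = 2 each; adjusted p = 0.109). The BAF60 subunits Smarcd1, Smarcd2 and Smarcd3 had log2 fold changes of 0.13, -0.06 and -0.02. Smarcd2 was spread widely within the treated group, at 27.8 and 40.4 CPM, around its controls of 36.9 and 33.5 CPM. Exon bases that Smarcd3 shares with Chpf2 and Mir671 on the opposite strand sum to 2564, and reads of these genes could not be told apart there if the counting ignored strand.

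The subunits that set the kind of SWI/SNF assembly were divided. In the canonical assembly, which carries Arid1a or Arid1b, Arid1b had 45.9 and 44.9 CPM with 1-nitropyrene and 36.6 and 40.7 CPM in control. It rose by 0.25 (SE 0.09, adjusted p = 0.0406). Arid1a, its alternative with the higher level per length, had 340.0 and 334 CPM with 1-nitropyrene and 343 and 333 CPM in control, overlapping groups with a treated-to-control ratio of 0.996 (95% interval 0.946 to 1.05). Members of the polybromo assembly, PBAF, went both ways: the bromodomain protein Pbrm1 rose, at 218 and 214 CPM with 1-nitropyrene against 192 and 196 CPM in control (0.16, SE 0.05, adjusted p = 0.00465). Its partner Arid2, which anchors Pbrm1 in the complex, fell, at 67.4 and 75.7 CPM with 1-nitropyrene against 77.9 and 86.0 CPM in control (-0.19, SE 0.07, adjusted p = 0.0390). Brd7, a further PBAF bromodomain subunit, fell as well, at 155 and 157 CPM with 1-nitropyrene against 171 and 173 CPM in control (-0.14, SE 0.05, adjusted p = 0.0304). Brd9, which marks the non-canonical assembly, had 37.6 and 45.0 CPM with 1-nitropyrene and 39.0 and 32.1 CPM in control (adjusted p = 0.155).

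Each of these 4 calls ended with some library left out, and DESeq2 made none of them (adjusted p between 0.122 and 0.355). Arid1b lost its call in edgeR without control replicate 1 (adjusted p = 0.484), control replicate 2 (0.0501), 1-nitropyrene replicate 2 (0.146) or 1-nitropyrene replicate 3 (0.0805), and Brd7 without the same libraries (0.121, 0.155, 0.129 and 0.0544). Arid2 lost it without control replicate 2 (adjusted p = 0.367) or 1-nitropyrene replicate 2 (0.425), and Pbrm1 without control replicate 1 (0.123). The log2 fold change of Arid2 was -0.10 without 1-nitropyrene replicate 2, and that of Arid1b was 0.16 without control replicate 1.

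ISWI remodellers slide nucleosomes into regular arrays, and their main ATPase in most cells is Smarca5 (SNF2H). Smarca5 (chromosome 8, 80698507 to 80739497) had 475 and 453 CPM with 1-nitropyrene and 415 and 421 CPM in control. It was higher in both treated libraries, by 0.15 on the log2 scale (SE 0.04, adjusted p = 0.000163). The other ISWI ATPase, Smarca1 (SNF2L), was scarcely read, with 17 and 22 counts with 1-nitropyrene and 24 and 23 counts in control (log2 fold change -0.22, SE 0.39, adjusted p = 0.749). Bptf, the large subunit that brings the NURF complex to modified histone tails, had 55.4 and 55.9 CPM with 1-nitropyrene and 56.4 and 57.9 CPM in control (ratio 0.977, 95% interval 0.874 to 1.09).

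Of the 6 CHD ATPases outside NuRD, 1 rose (16.7%) and 5 did not pass the test, a share near the 13.2% of all tested genes called higher. Chd7, the ATPase mutated in CHARGE syndrome in humans, had 46.2 and 40.9 CPM with 1-nitropyrene and 36.0 and 36.7 CPM in control (0.27, SE 0.10, adjusted p = 0.0292). This call ended in DESeq2 (adjusted p = 0.302), without control replicate 1 (0.227), without control replicate 2 (0.0960) and without 1-nitropyrene replicate 2 (0.325), where the log2 fold change was 0.17. Chd1, a remodeller of transcribed genes, had 100.8 and 104 CPM with 1-nitropyrene and 94.4 and 97.9 CPM in control (0.09, SE 0.06, adjusted p = 0.290). Chd8, a regulator of beta-catenin target genes, had 106 and 105 CPM with 1-nitropyrene and 112 and 113 CPM in control (-0.09, SE 0.06, adjusted p = 0.271). Chd2 had 33.8 and 31.6 CPM with 1-nitropyrene and 30.2 and 30.1 CPM in control (0.12, SE 0.11, adjusted p = 0.475), and Chd6 had 15.8 and 17.6 CPM with 1-nitropyrene and 15.7 and 14.8 CPM in control (0.12, SE 0.15, adjusted p = 0.623). Neither passed. Chd9 had 21.3 and 23.2 CPM with 1-nitropyrene and 22.4 and 20.9 CPM in control, and the groups overlapped. Its log2 fold change, 0.03 (SE 0.13, adjusted p = 0.912), became 0.00 without scaling factors.

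NuRD couples a CHD ATPase to the deacetylases Hdac1 and Hdac2, and 5 of its 13 listed genes rose while 8 did not pass the test. These are 38.5% of the 13, with 0 lower. Over all tested genes 24.5% were called, 13.2% of them all as higher. In the fit limited to genes averaging 10 CPM or more the shares were 34.9% and 17.8%, and Chd4 lost its call there (edgeR adjusted p = 0.11). The difference between these shares was not tested. Of its ATPases, Chd3 (chromosome 11, 69343273 to 69369406) had 173 and 183 CPM with 1-nitropyrene and 149 and 146 CPM in control. The treated libraries lay well above, by 0.27 on the log2 scale (SE 0.05, adjusted p = 2.28e-06). Chd4, its ATPase with the highest level per length, had 468 and 461 CPM with 1-nitropyrene and 422 and 451 CPM in control (0.09, SE 0.03, adjusted p = 0.0344). Its call ended in DESeq2 (adjusted p = 0.249), and with control replicate 1 (0.610), 1-nitropyrene replicate 2 (0.143) or 1-nitropyrene replicate 3 (0.0526) left out. Without control replicate 1 its log2 fold change was 0.04. Chd5, the ATPase of neural tissue and testis, had 11 and 17 counts with 1-nitropyrene and 27 and 29 counts in control. Its log2 fold change of -0.94 (SE 0.41) was the farthest from 0 of the list and did not pass (adjusted p = 0.0771).

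The histone-binding subunits Rbbp7 and Rbbp4, which NuRD shares with other chromatin complexes, both rose. Rbbp7 (chromosome X, 162760402 to 162779092) had the highest level per length of all 47 genes, at 1024 and 1037 CPM with 1-nitropyrene and 888 and 878 CPM in control. The gap between groups far exceeded the gaps within them (log2 fold change 0.22, SE 0.03, adjusted p = 7.28e-14). A processed pseudogene with 97.1% identity over 942 bases, Gm6382, carried 1167 and 1250 counts with 1-nitropyrene and 1294 and 779 counts in control. With those reads added, the Rbbp7 log2 fold change was 0.23. Rbbp4 (chromosome 4, 129307100 to 129335370) had 207 and 212 CPM with 1-nitropyrene and 185 and 182 CPM in control (0.19, SE 0.05, adjusted p = 0.000428), with 1578 exon bases shared with opposite-strand genes.

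Of the deacetylases, Hdac2 had 113 and 119 CPM with 1-nitropyrene and 103 and 98.0 CPM in control, and rose by 0.20 (SE 0.06, adjusted p = 0.00572). Its call ended in DESeq2 (adjusted p = 0.150), without control replicate 2 (0.112) and without 1-nitropyrene replicate 3 (0.102). Hdac1 had 26.8 and 26.0 CPM with 1-nitropyrene and 30.4 and 29.2 CPM in control, a log2 fold change of -0.18 that did not pass (adjusted p = 0.269). Mta1, a scaffold for the deacetylases, had the second highest level per length, with 427 and 414 CPM with 1-nitropyrene and 409 and 399 CPM in control (ratio 1.04, 95% interval 0.991 to 1.09). Mta2 stood at 99.0 and 97.4 CPM with 1-nitropyrene and 101 and 103 CPM in control (adjusted p = 0.602). Mta3, the scaffold with the lowest level per length, had 83 and 81 counts with 1-nitropyrene and 71 and 46 counts in control. Scaled, this was 9.55 and 9.52 CPM with 1-nitropyrene and 6.53 and 6.59 CPM in control, a log2 fold change of 0.54 (SE 0.22) just outside the threshold (adjusted p = 0.0550). The methyl-CpG-binding-domain protein Mbd3 had a log2 fold change of -0.10 and the linker Gatad2b one of 0.03. Gatad2a, the alternative linker, was uneven, at 12.5 and 7.52 CPM with 1-nitropyrene and 8.09 and 9.60 CPM in control.

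Ino80, the ATPase that gives the INO80 complex its name and acts at replication forks and promoters, showed the steepest called fall. Ino80 (chromosome 2, 119373042 to 119477687) had 641 and 648 counts with 1-nitropyrene and 1108 and 701 counts in control. Scaled, these were 73.7 and 76.2 CPM with 1-nitropyrene and 102 and 100.5 CPM in control, with no overlap. The log2 fold change was -0.43 (SE 0.07, adjusted p = 1.79e-09), or a ratio of 0.740 with a 95% interval of 0.676 to 0.810. With a library left out it stayed between -0.46 and -0.41. The AAA+ ATPases Ruvbl1 and Ruvbl2, which form a ring in the INO80, SRCAP and EP400 complexes, did not pass. Ruvbl1 had 38.2 and 41.8 CPM with 1-nitropyrene and 42.3 and 38.7 CPM in control (-0.03, SE 0.10, adjusted p = 0.871), and Ruvbl2 had 62.8 and 69.9 CPM with 1-nitropyrene and 71.4 and 72.4 CPM in control (-0.11, SE 0.07, adjusted p = 0.279). Ep400 had 140.0 and 147 CPM with 1-nitropyrene and 132 and 137 CPM in control (0.09, SE 0.05, adjusted p = 0.215). Srcap was scarcely read, with 42 and 35 counts with 1-nitropyrene and 50 and 25 counts in control (0.09, SE 0.30, adjusted p = 0.873), and 9738 of its exon bases overlap Gm42715 on its own strand.

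Among the SNF2-type ATPases that work outside these complexes, the 3 genes of the list that were tested all rose. Over all tested genes 13.2% were called higher, and 17.8% of those averaging 10 CPM or more. Of 8 further SNF2-type ATPases and partners tested, 0 were higher and 1, Rad54l2, was lower. Hells (LSH), needed for DNA methylation of repeats, had 71.0 and 73.1 CPM with 1-nitropyrene and 62.0 and 56.3 CPM in control (0.27, SE 0.08, adjusted p = 0.00256). Atrx, which deposits a histone variant at telomeres and repeats together with Daxx, had 88.2 and 86.8 CPM with 1-nitropyrene and 79.7 and 71.9 CPM in control (0.20, SE 0.07, adjusted p = 0.0215). Smarcad1, active in DNA end resection and heterochromatin upkeep, had 23.9 and 27.3 CPM with 1-nitropyrene and 21.2 and 19.2 CPM in control (0.33, SE 0.13, adjusted p = 0.0442). DESeq2 called none of the 3 (adjusted p of 0.115, 0.241 and 0.319). In edgeR, Hells was lost without control replicate 2 (adjusted p = 0.100), Atrx without control replicate 2 (0.304), 1-nitropyrene replicate 2 (0.0970) or 1-nitropyrene replicate 3 (0.0501), and Smarcad1 without control replicate 1 (0.105), control replicate 2 (0.237) or 1-nitropyrene replicate 3 (0.337). Without control replicate 2 the log2 fold change of Atrx was 0.13. Smarcal1, an annealing helicase of stalled replication forks, was the 1 gene below the filter, with 6 and 2 counts with 1-nitropyrene and 5 and 3 counts in control.

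**Figure D3:**
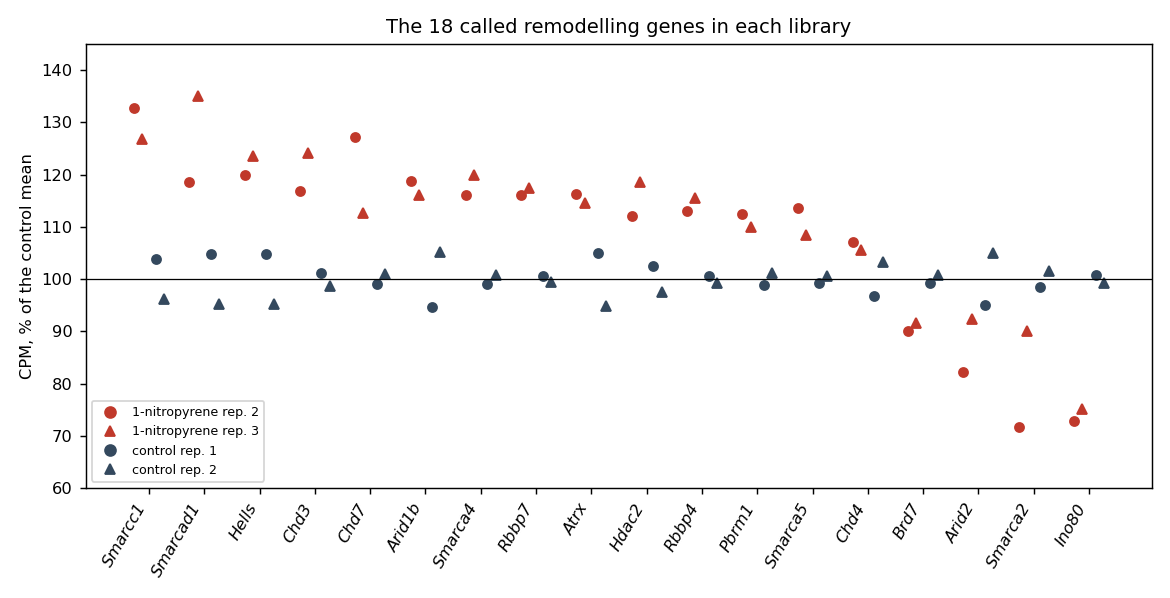
Level of each of the 18 called remodelling genes in each library, as a percentage of the gene's control mean (y axis), with 1-nitropyrene in red and control in dark blue. Both red symbols stand above both blue ones for 14 genes and below them for Brd7, Arid2, Smarca2 and Ino80. The genes shown were chosen by their calls in these same libraries, so this separation is no further evidence. Of all tested genes, 59.2% had groups that did not overlap.

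The balance within pairs of alternative subunits was described by the log2 ratio of their levels per length. With 2 libraries a group an exact permutation test of such a ratio cannot go below p = 0.333, so ratios are given without a test. The ratio of Smarca2 to Smarca4 was -4.09 and -3.81 with 1-nitropyrene and -3.40 and -3.39 in control, a mean difference of -0.55. As a share of the reads of the pair, Smarca2 held 11.5% and 13.6% with 1-nitropyrene and 17.2% and 17.4% in control. The ratio of Smarcc1 to Smarcc2 was -0.66 and -0.73 with 1-nitropyrene and -1.07 and -1.20 in control, a difference of 0.44. For Hdac1 to Hdac2 it was -1.69 and -1.82 with 1-nitropyrene and -1.39 and -1.37 in control, a difference of -0.38. Arid1a to Arid1b differed by -0.24 and Chd3 to Chd4 by 0.18. Rbbp4 to Rbbp7, both of which rose, had a ratio of -3.89 and -3.88 with 1-nitropyrene and -3.85 and -3.86 in control. Mta1 to Mta2 and Ruvbl1 to Ruvbl2 differed by 0.11 and 0.10. Differences were -0.41 for Smarca1 to Smarca5, 0.18 for Smarcd1 to Smarcd2 and 0.10 for Gatad2a to Gatad2b, with overlapping groups. No background over other gene pairs was computed, and 59.2% of all single genes had groups that did not overlap. Nothing is therefore read from the separation of any of these pairs.

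**Figure D4:**
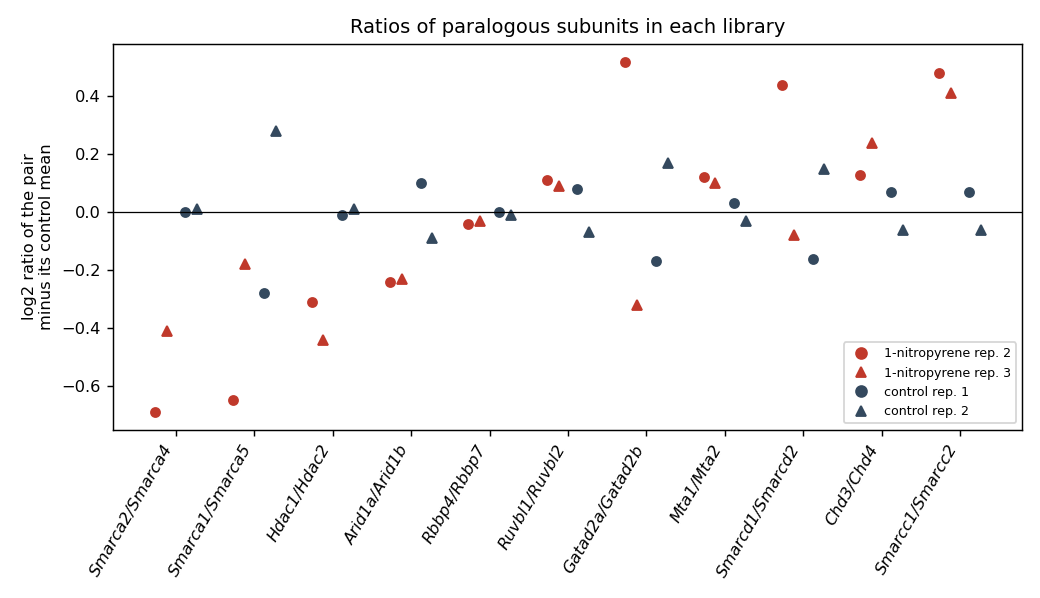
Log2 ratio of levels per length within 11 pairs of alternative subunits in each library (y axis), set to a control mean of 0 for each pair, with 1-nitropyrene in red and control in dark blue. Smarca2/Smarca4 and Hdac1/Hdac2 lie below 0 in both treated libraries and Smarcc1/Smarcc2 above it, while Gatad2a/Gatad2b is split between the treated libraries.

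Levels of different genes were compared as CPM divided by the merged exon length in kilobases (RPKM), over the 4 libraries (mean ± SD). Rbbp7 led with 329 ± 29.4 RPKM, ahead of Mta1 with 133 ± 3.75 RPKM. Smarca5 and Chd4 followed at 56.7 ± 3.62 and 56.2 ± 2.50 RPKM, which did not differ beyond their spread. Brd7, Arid1a, Smarca4 and Smarce1 came next, between 31.3 and 27.2 RPKM, and the core subunits Smarcd3, Smarcc2, Actl6a and Smarcd1 lay between 24.5 and 16.4 RPKM. Smarca4 at 27.5 ± 2.65 RPKM stood far above Smarca2 at 2.17 ± 0.321 RPKM, and Arid1a at 29.4 ± 0.426 RPKM above Arid1b at 3.34 ± 0.337 RPKM. Below 1 RPKM were Chd9, Chd6, Smarca1, Srcap, Chd5 and Smarcal1. Of the 15783 exon bases of Srcap, 9738 are shared with Gm42715, a gene on the same strand with 0 counts in every library. How reads of such shared bases were assigned is not known, and their part in the low level of Srcap was not tested. Smarcb1, a subunit common to canonical and polybromo SWI/SNF, was at 3.04 ± 0.507 RPKM, below its partner Smarce1. Such levels rest on the reads assigned to each mouse locus, and merged exons overstate the length of genes with many isoforms.

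**Figure D5:**
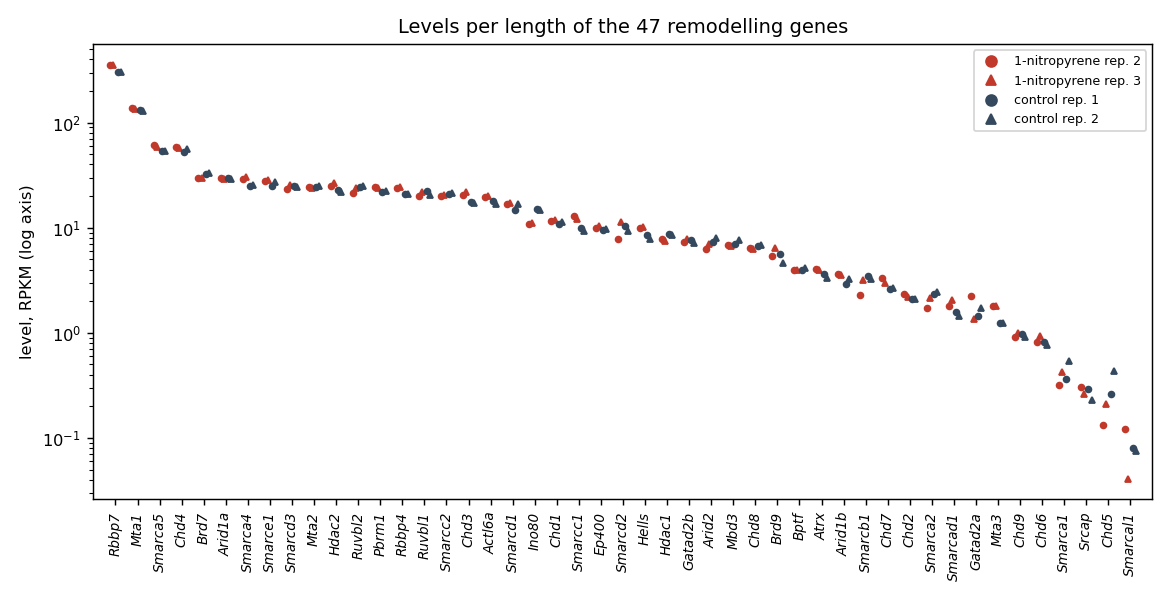
Level per length in RPKM (y axis, log scale) of all 47 remodelling genes in each library, ordered by their mean, with 1-nitropyrene in red and control in dark blue. Levels run from Rbbp7 near 329 RPKM to Smarcal1 at 0.0792 RPKM, a span far wider than any difference between the groups.

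Reads of close copies could be split from their parent genes. Smarca5 has 6 processed pseudogenes with counts at 96.8% to 98.1% identity, and Smarca5-ps alone had 144 and 115 counts with 1-nitropyrene and 187 and 120 counts in control. Adding pseudogene reads moved the Smarca5 log2 fold change to 0.14 and kept its call (adjusted p = 0.000428), and brought Smarce1 over the threshold (0.12, adjusted p = 0.0373). Ruvbl1 and Hdac1, with the copies Gm5837 and Gm10093, did not pass with those reads either (adjusted p of 0.589 and 0.126). Of the 18 called genes, Smarca2, Smarcc1, Pbrm1, Rbbp4 and Rbbp7 share 40, 123, 15, 1578 and 174 exon bases with opposite-strand genes (27.8%, against 35.7% of tested genes with such overlap).

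Of 70 further subunits and partners of the same complexes, 68 had a symbol in the annotation and 54 were tested, of which 7 were higher and 5 lower. The share called, 22.2%, lay near the 24.5% of all tested genes. By complex, 3 of 5 NuRD genes were higher and 1 lower, 2 of 14 SRCAP and TIP60-EP400 genes were higher and 2 lower, 1 of 12 SWI/SNF genes was higher and 1 lower, and 1 of 9 INO80 genes was higher. Of 8 further SNF2-type ATPases and partners 1 was lower. Neither edgeR nor DESeq2 called any of the 6 ISWI genes, and in edgeR 0 had an unadjusted p under 0.05. Trrap, the scaffold of the TIP60-EP400 complex, had 48.8 and 50.4 CPM with 1-nitropyrene and 32.9 and 33.5 CPM in control (0.58, SE 0.10, adjusted p = 3.52e-08). Cdk2ap1, a small NuRD subunit, had 193 and 213 CPM with 1-nitropyrene and 147 and 128 CPM in control (0.55, SE 0.05, adjusted p = 4.96e-26). Mbd2, which takes the place of Mbd3 in NuRD, had 213 and 243 CPM with 1-nitropyrene and 193 and 179 CPM in control (0.29, SE 0.05, adjusted p = 8.05e-09). Epc2, of the TIP60-EP400 complex, had 169 and 168 CPM with 1-nitropyrene and 138 and 146 CPM in control (0.25, SE 0.05, adjusted p = 1.54e-05). Actb, the actin that sits in SWI/SNF and forms the cytoskeleton, had 13016 and 13031 CPM with 1-nitropyrene and 10950 and 11026 CPM in control (0.25, SE 0.02, adjusted p = 1.01e-55). Both genes were higher in each treated library than in either control. These 5 kept their calls in DESeq2 and with each library left out, Mbd2 at 0.19 without 1-nitropyrene replicate 3. Rad54l2, a SNF2-type ATPase, had 59.8 and 61.0 CPM with 1-nitropyrene and 74.6 and 75.5 CPM in control (-0.31, SE 0.08, adjusted p = 0.000315, and 0.0520 in DESeq2).

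The other 6 calls were less firm, and DESeq2 made none of them. Zfp219, a NuRD partner, had 57.4 and 57.7 CPM with 1-nitropyrene and 48.8 and 46.2 CPM in control (0.27, SE 0.08, adjusted p = 0.00821), and lost its call without control replicate 2 (0.102). Uchl5, the deubiquitinase of INO80, had 77.1 and 78.3 CPM with 1-nitropyrene and 65.4 and 66.1 CPM in control (0.24, SE 0.07, adjusted p = 0.00585), and lost its call without control replicate 1 (0.102). The falls were in Mbtd1 and Meaf6 of the TIP60-EP400 complex, Bicral of the non-canonical SWI/SNF assembly and Cdk2ap2, a relative of Cdk2ap1. Mbtd1 had 30.8 and 40.4 CPM with 1-nitropyrene and 46.1 and 49.6 CPM in control (-0.42, SE 0.10, adjusted p = 0.000136). Without 1-nitropyrene replicate 2 its log2 fold change was -0.23 (0.131). Meaf6 had 13.7 and 16.2 CPM with 1-nitropyrene and 19.6 and 22.2 CPM in control (-0.47, SE 0.15, adjusted p = 0.00873), and lost its call without control replicate 2 (0.110) or 1-nitropyrene replicate 2 (0.161). In both, 1-nitropyrene replicate 2 was the lower treated library. Bicral had 8.74 and 9.87 CPM with 1-nitropyrene and 13.0 and 14.0 CPM in control (-0.53, SE 0.18, adjusted p = 0.0218). Cdk2ap2 had 49.5 and 51.6 CPM with 1-nitropyrene and 58.7 and 59.5 CPM in control (-0.22, SE 0.08, adjusted p = 0.0318). Bicral and Cdk2ap2 lost their calls without control replicate 1 (adjusted p of 0.0787 and 0.156), control replicate 2 (0.114 and 0.131) or 1-nitropyrene replicate 2 (0.167 and 0.162). Of the 14 further subunits below the filter 7 had 0 counts in all 4 libraries. Chosen after their values were seen, Yeats4, a reader subunit of SRCAP and TIP60-EP400, was at 0, and Daxx, the partner of Atrx, and Pole3, a histone-fold subunit of the ISWI complex CHRAC, had 1 count each in total.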

How the data were processed

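The authors' deposited table gives whole, unnormalized counts of reads for every gene in each library. Per the labels' protocols, the kit used for the libraries marks strand. HISAT2 2.1.0, featureCounts 1.6.3, DESeq2 and GRCm38 (mm10) are listed without roles in the submitters' processing notes. For the annotation release, the strand setting and multi-mapping reads, the sources used here give nothing, so reads of overlapping genes and close copies may be misassigned. Groups came from the sample titles.

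Of 53465 identifiers 53360 matched GENCODE M21 (GRCm38), which gave symbols, coordinates and exon lengths. Counts were analysed with edgeR 4.0.16 (filterByExpr at a minimum count of 10, TMM, quasi-likelihood test, Benjamini-Hochberg adjustment over 7738 genes) in R 4.3.3, with an intercept and the treatment. The estimated prior degrees of freedom were without bound, so SEs ignore a gene's own replicate spread. Each gene's spread combined a biological coefficient of variation of 2.34%, the same for all genes, with a factor read from a trend over levels. The spread used therefore differed between genes of different level, and all p-values depend on that trend. The chi-square statistic per degree of freedom was 2.05 between treated and 1.62 between control replicates, above sampling noise. Intervals are at 95%, tests two-sided, and counting floors cover counting error only. Copies were sought with blastn 2.17.0 (95% identity over 200 bases).

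Alternatives were other scalings, filters, DESeq2 1.42.0, limma-voom (limma 3.58.1), robust and older fits, a 1.2-fold test and leaving out each library. Adding pseudogene reads was chosen after seeing the data. The genes and lists were chosen with earlier results of these data known. Values per library and full statistics are given for called genes, the ATPases and called further subunits.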

Additional observations from a re-analysis of the deposited data

How the results depend on the processing

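No paired analysis was possible because the groups share only replicate number 2. With 2 libraries a group, all calls rest on a spread pooled over genes, and leaving out 1 library assumes that the lone library of its group varies like the other pair. No called remodelling gene changed direction in any of the 19 settings, and 11 of the 18 calls ended with at least 1 library left out.

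Without scaling factors 9 remodelling genes were higher and their median log2 fold change was 0.06. In the fit limited to genes averaging 10 CPM or more it was 0.07. Without a filter on low counts 763 genes were higher and 532 lower, together 10.6% of 12182. Of the 47 remodelling genes 9 were higher and 1 lower (21.3%), with 2 further subunits lower. There Arid1b, Chd4, Chd7, Atrx, Smarcad1, Smarca2, Arid2 and Brd7 lost their calls. DESeq2 gave 465 higher and 254 lower genes, and 6 higher and 1 lower remodelling genes. It called 0 further subunits lower (3 at an unadjusted p under 0.05, against 5 called by edgeR and 5 by limma-voom). Restricted to genes without an exon shared with an opposite-strand gene, 657 genes were higher and 568 lower, together 24.6% of 4976. Of the 31 remodelling genes left 10 were higher and 2 lower (38.7%). Smarca2 was not in that fit and Arid2 lost its call (adjusted p = 0.0529). At an adjusted p under 0.01, 754 genes were higher and 568 lower, together 17.1% of 7738. Of the 46 remodelling genes 9 were higher and 1 lower (21.7%), and 3 further subunits were lower. The remodelling genes were read more deeply than most, and the differences between these shares were not tested. Against a 1.2-fold change edgeR called 239 genes higher and 214 lower. Of the remodelling genes it called 0 higher (2 at an unadjusted p under 0.05, against 6 called by DESeq2) and 1 lower, and of the further subunits 2 higher and 0 lower (3 at an unadjusted p under 0.05).

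With each library left out in turn, 690 to 861 genes were higher and 511 to 647 lower, 8 to 11 remodelling genes higher and 1 to 5 lower, and 6 to 7 further subunits higher and 2 to 5 lower. The median of the remodelling genes stayed between 0.06 and 0.09. Genes that did not pass the test changed sign, with log2 fold changes from -0.03 to 0.02 (Arid1a), -0.03 to 0.09 (Chd9), -0.21 to 0.53 (Gatad2a), -0.02 to 0.08 (Gatad2b), -0.10 to 0.05 (Ruvbl1), -0.54 to 0.04 (Smarca1), -0.35 to 0.19 (Smarcd2), -0.09 to 0.04 (Smarcd3) and -0.04 to 0.32 (Srcap). Chd9 also reached 0.00 without scaling factors and Arid1a 0.00 without a filter. The Gatad2a to Gatad2b ratio difference ran from -0.32 to 0.52 and that of Smarcd1 to Smarcd2 from -0.08 to 0.44. For all of these the cause was not tested.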
